A study of Homo sapiens with 5 samples.

Results

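The expressed small nuclear RNA (snRNA) genes of DAOY cells were chosen by their biotype and level: the deposited table had to list the gene as snRNA, with a mean of at least 1 TPM (transcripts of a gene, scaled to the same total in each library) over the 5 libraries. Of 1896 snRNA genes in the table, 44 met this rule, and 97 were above 0 in any library. The 44 genes comprised 26 U1, 8 U5, 3 U2, 3 U4, 1 U6, 1 U12, 1 U4atac and 1 U6atac genes, and none for U7 or U11. DAOY is an established human medulloblastoma cell line of the SHH subtype. The cells received 20 nM of si-NC, a non-targeting negative control siRNA (2 libraries), or of siRNA against the circular RNA circ_63706 (si-circ_63706, 3 libraries), by lipid transfection for 48 h. Total RNA was sequenced, and the comparison asks which snRNAs differed after circ_63706 was targeted. All libraries come from 1 cell line, the labels do not say which siRNA sequence each si-circ_63706 library received or whether replicates were separate cultures, and p values measure the spread between these libraries.

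snRNAs are short, stable, non-polyadenylated RNAs that form the catalytic and recognition core of the spliceosome. In the major spliceosome, U1 pairs with the 5′ splice site, U2 with the branch point, and U4, U6 and U5 join as the tri-snRNP. In the minor spliceosome, which removes a rare class of introns, U11, U12, U4atac and U6atac take the places of U1, U2, U4 and U6, and U5 is shared. U7 acts in the 3′ processing of histone mRNAs. All but U6 and U6atac are made by RNA polymerase II from promoters bound by SNAPc, trimmed by the Integrator complex, and assembled with a ring of Sm proteins by the SMN complex. U6 and U6atac are made by RNA polymerase III and bind LSM proteins instead. Human snRNA genes occur in many copies and pseudogenes, so that short reads often match several annotated genes.

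The U1 sequences are shown because they decide which values can be told apart. GENCODE 29 (GRCh38) gives 8 of the 26 U1 genes a single identical sequence of 164 nt, represented by RNU1-1 (chr1:16514122-16514285, minus strand). RNVU1-7 (chr1:148038753-148038916, minus strand) and U1 (ENSG00000277918) (chr1:144560666-144560829, minus strand) each differ from it at 1 base, T150C and G37T, with positions counted from 1 at the 5′ end and the RNU1-1 base first. RNVU1-15 (chr1:144412576-144412740, plus strand), a variant U1 gene, has 89.09% identity with RNU1-1 and differs from it within the first 11 bases by C9T. In RNU1-1, capitals mark the stretch that pairs with 5′ splice sites and the Sm site. In the other sequences they mark those single bases that differ.
RNU1-1: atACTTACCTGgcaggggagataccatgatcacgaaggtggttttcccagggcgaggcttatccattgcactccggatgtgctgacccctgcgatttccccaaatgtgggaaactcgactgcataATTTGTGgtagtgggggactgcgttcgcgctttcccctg
RNVU1-7: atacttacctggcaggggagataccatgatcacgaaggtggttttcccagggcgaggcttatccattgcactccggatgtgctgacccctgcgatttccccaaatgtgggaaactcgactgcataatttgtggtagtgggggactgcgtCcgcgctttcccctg
U1 (ENSG00000277918): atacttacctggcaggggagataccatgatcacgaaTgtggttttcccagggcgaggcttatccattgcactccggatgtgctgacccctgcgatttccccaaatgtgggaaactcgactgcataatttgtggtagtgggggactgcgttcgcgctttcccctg
RNVU1-15: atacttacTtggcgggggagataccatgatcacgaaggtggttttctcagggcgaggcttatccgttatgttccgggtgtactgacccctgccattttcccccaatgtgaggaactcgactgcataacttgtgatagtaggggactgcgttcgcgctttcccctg

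The U2 pair is shown because the entry that carried the U2 reads was not RNU2-1. RNU2-1 (chr17:43233787-43233977, minus strand) shares its 191 nt with 10 other entries and RNU2-2P (chr11:62841619-62841809, minus strand) differs from it at 8 bases. Capitals mark these 8 positions.
RNU2-1: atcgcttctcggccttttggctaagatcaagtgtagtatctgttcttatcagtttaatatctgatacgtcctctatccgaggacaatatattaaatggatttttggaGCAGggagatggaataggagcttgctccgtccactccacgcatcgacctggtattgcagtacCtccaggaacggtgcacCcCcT
RNU2-2P: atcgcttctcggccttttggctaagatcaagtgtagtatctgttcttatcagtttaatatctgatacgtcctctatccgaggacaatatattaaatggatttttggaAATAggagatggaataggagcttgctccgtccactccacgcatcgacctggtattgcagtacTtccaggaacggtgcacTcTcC

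The next sequences are those of RNU4ATAC, the minor snRNA called higher, and of RNU11 for comparison. RNU4ATAC is at chr2:121530881-121531007 (plus strand) and RNU11 at chr1:28648600-28648733 (plus strand). Capitals mark the Sm site.
RNU4ATAC: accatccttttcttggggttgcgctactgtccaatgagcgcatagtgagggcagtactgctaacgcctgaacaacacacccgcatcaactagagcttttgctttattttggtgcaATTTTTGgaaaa
RNU11: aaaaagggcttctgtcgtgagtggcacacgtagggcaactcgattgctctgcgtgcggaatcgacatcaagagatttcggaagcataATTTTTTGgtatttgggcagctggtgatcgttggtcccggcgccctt

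All 44 genes had a GENCODE 29 sequence, between 109 and 194 nt long and of 37 distinct kinds. Searched on the strand of the gene, the 9 letters ACTTACCTG of the U1 5′ end were present in 14 of 26 expressed U1 genes, against 34.5% of the 145 U1 entries with a sequence. They were in all 10 U1 genes with 0 or 1 difference from RNU1-1 and in 4 of the 16 others. The U2 letters GTAGTA were in 2 of 3 expressed U2 genes (RNU2-63P lacked them), against 58.0% of 88 entries. A Sm-like site, ATTTNTG or ATTTTTTG, was present in 36 of 44 genes, against 28.7% of the 1872 snRNA entries with a sequence. These 2 sets differ in their mix of types. U6 and U6atac, which bind LSM proteins instead, make up 1300 and 43 of the 1896 entries but 1 gene each of the 44. The shares therefore do not compare expressed with unexpressed copies of the same types. The 8 genes without these letters were RNU6ATAC, RNVU1-15, RNU5E-4P, U1 (ENSG00000206828), RNU6-914P, U4 (ENSG00000277986), RNU2-63P and RNU1-122P. Of the 26 U1 genes, 23 lie on chromosome 1.

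The series' own checks were limited. TPM sums to 1000000 in each library over all biotypes, so a larger share for some genes lowers the values of the rest. The protein-coding share of TPM was 29.02% in both si-NC libraries and between 25.24% and 26.94% after si-circ_63706. The misc_RNA share lay between 52.01% and 54.02% in the 5 libraries. The table lists genes, so circ_63706 itself was not analysed here. Its linear host gene PCNT had 9.96 and 10.38 TPM in si-NC cells and 8.80, 7.99 and 7.54 TPM after si-circ_63706. Among markers of SHH medulloblastoma, PTCH1 (2.18 to 3.90 TPM), SMO (3.72 to 5.08 TPM), BOC (2.71 to 3.55 TPM) and GLI2 (0.92 to 1.43 TPM) were detected in each library, GLI1 was at 0.29 to 0.49 TPM and ATOH1, a marker of granule cell precursors, was at 0 to 0.03 TPM.

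snRNA genes together took 8.824% and 8.973% of all TPM in si-NC cells and 14.02%, 11.53% and 11.09% after si-circ_63706. Each si-circ_63706 library was above both si-NC libraries, and the ratio of the group means was 1.37 (8.90% ± 0.105, SD, n = 2, against 12.2% ± 1.58, SD, n = 3). The shares of 2 small classes were also higher in every si-circ_63706 library: mitochondrial rRNA took 0.0292% and 0.0370% of TPM against 0.0690%, 0.0764% and 0.0590%, and lincRNA genes 0.340% and 0.352% against 0.367%, 0.403% and 0.367%. The lincRNA class includes an RNU11 entry that lies within the U11 snRNA gene. That entry had 184.51 and 225.26 TPM in si-NC cells and 469.83, 396.56 and 437.94 TPM after si-circ_63706. Taking that entry off the lincRNA shares leaves groups that overlap, so their separation rests on it. The part of both classes in the snRNA share was not tested. The snRNA types differed among themselves. U1, the most abundant type, U5, U12 and U4atac were higher in every si-circ_63706 library than in either si-NC library. U2 was lower in every one, and U4 and U6atac overlapped. These sums were described without a test, and fewer cells holding an snRNA cannot be told apart from less of it per cell.

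U1 summed over its 146 entries to 78055 and 79212 TPM in si-NC cells and to 127767, 105476 and 100414 TPM after si-circ_63706, a ratio of 1.41 between the group means. The lowest si-circ_63706 library was above the highest si-NC library. U2 summed to 2897 and 2833 TPM in si-NC cells and to 2638, 2415 and 2559 TPM after si-circ_63706, a ratio of 0.886. U4 gave 4358 and 4665 TPM against 5181, 4237 and 4257 TPM, with overlapping groups. U5 gave 2738 and 2767 TPM against 4251, 2960 and 3364 TPM, a ratio of 1.28. In each of these types except U2, si-circ_63706 library 1 was the highest of the 5, and the part of that library in the U5 value was large: without it the log2 ratio fell from 0.36 to 0.20.

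**Figure D1:**
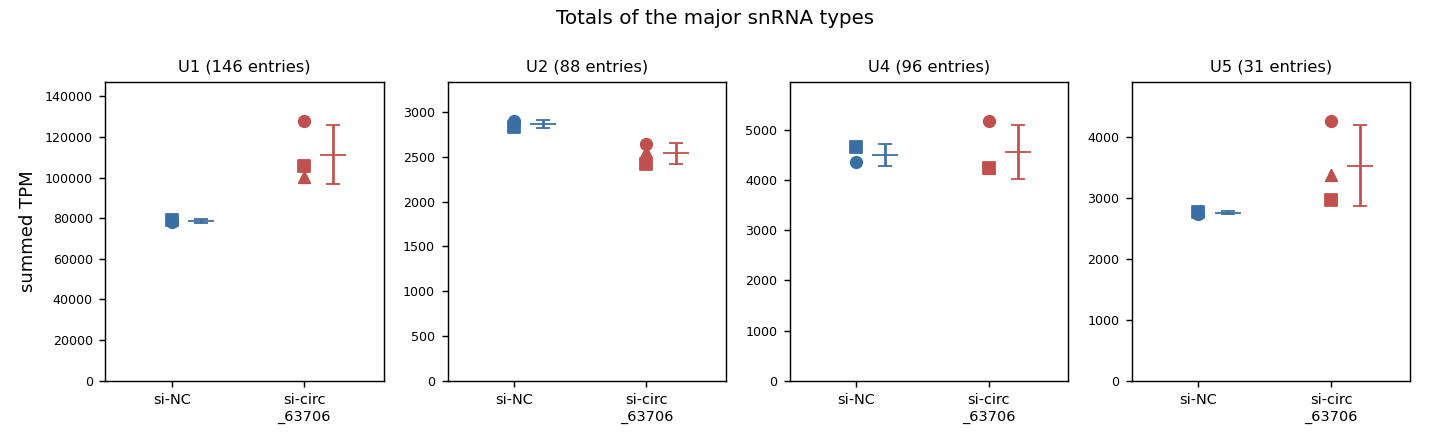
Summed TPM of all U1, U2, U4 and U5 entries (vertical axis, from 0) in the 2 si-NC libraries (blue) and the 3 si-circ_63706 libraries (red), where circles, squares and triangles are replicates 1, 2 and 3 and bars show the mean ± SD. U1 and U5 sit higher, U2 lower and U4 overlaps, with the U1 mean 1.41 times that of si-NC.

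The balance between the types differed as well. The U1 sum was 26.9 and 28.0 times the U2 sum with si-NC and 48.4, 43.7 and 39.2 times with si-circ_63706. The U1 sum was 17.9 and 17.0 times the U4 sum with si-NC and 24.7, 24.9 and 23.6 times with si-circ_63706. The U5 to U4 ratio was 0.628 and 0.593 against 0.820, 0.698 and 0.790. The groups did not overlap in any of these 3 ratios. A ratio of 2 types within a library does not depend on how the library total is scaled. Its size does depend on how reads matching several entries were counted and how short gene lengths were treated. Neither is stated, and the U2 sum came almost wholly from RNU2-2P, so these ratios are not measured proportions of the RNAs. U1 made up 88.46% and 88.28% of the snRNA TPM with si-NC and 91.11%, 91.45% and 90.58% with si-circ_63706.

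In the test of single genes, 4 of the 44 were called higher with si-circ_63706 (9.09%) and 4 were called lower (9.09%), at an adjusted p under 0.05 in limma over 12710 genes. The background was 4.16% higher and 35.4% lower over all tested genes. The higher genes were U1 (ENSG00000277918), RNU5E-1, RNU5A-8P and RNU4ATAC, and the lower genes were RNU2-2P, RNU2-63P, RNVU1-15 and U1 (ENSG00000270722). Groups did not overlap for 10 genes in the higher direction (22.7%, background 8.93%) and for 4 in the lower direction (9.09%, background 55.2%). Of the 10, 4 were U1 genes of identical sequence on the minus strand, which carry 1 set of values and so count it 4 times. The median log2 fold change was 0.09 over the 44 genes and -0.16 over all tested genes. Centring shifted each library by the median of its log2 ratios to the mean library, which moved the median of all genes to 0.00. The calls were then 4 higher (9.09%) and 2 lower, and the median of the 44 genes was 0.25. With centring, 13.1% of all tested genes were higher and 13.7% lower, so the share of the 44 genes called higher was below that of all genes. Without si-circ_63706 library 1 the calls were 2 higher and 6 lower, beside 4.48% and 29.1% of all tested genes. Without si-circ_63706 library 3 they were 6 and 3, beside 3.01% and 33.5%. Of these 6 higher genes, 4 were the U1 genes of identical sequence on the minus strand. As the 8 U1 genes of identical sequence carry only 2 sets of values, the 44 genes hold 38 distinct sets. With identical copies summed, 4 of 37 entries were called higher and 4 lower.

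**Figure D2:**
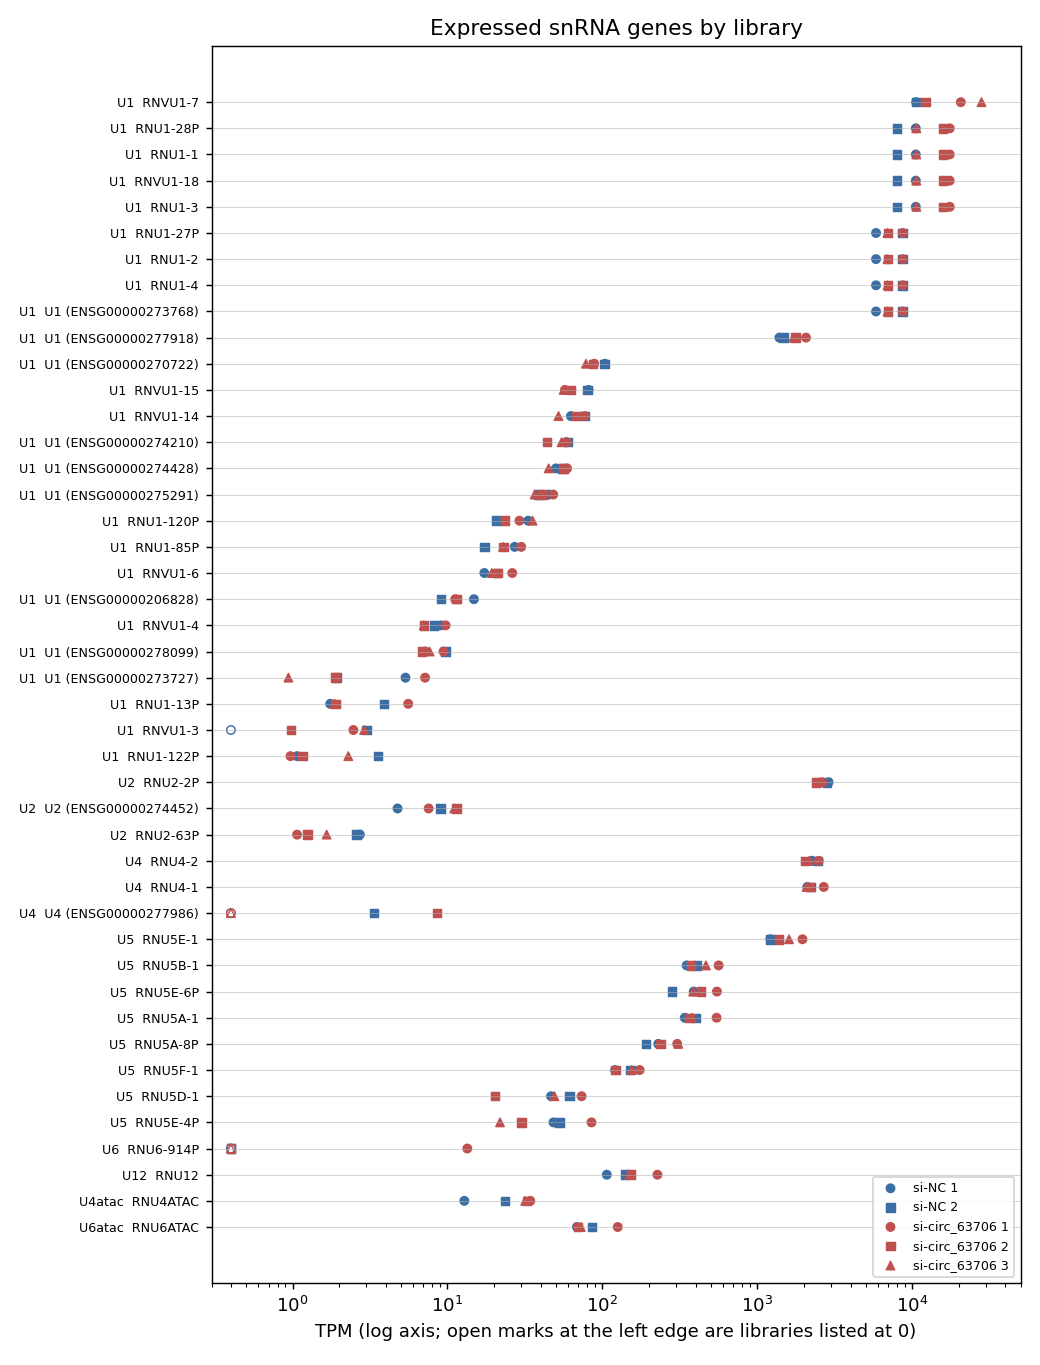
TPM (log axis) of each of the 44 expressed snRNA genes in the 2 si-NC libraries (blue) and the 3 si-circ_63706 libraries (red), grouped by type and ordered by mean TPM. Levels ran from 28001 TPM for RNVU1-7 down to genes listed at 0 in some libraries (open marks at the left edge), and in most genes the colours overlap.

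Among U1 genes, nearly all of the signal was in the copies that match RNU1-1 at all bases or all but 1. These 10 genes held 99.3% of the U1 TPM in each si-NC library and 99.6% in each si-circ_63706 library. The 8 identical genes fell into 2 sets of 4, with the same TPM for each gene of a set, and the sets were split by strand. On the minus strand were RNU1-1, RNU1-3, RNVU1-18 and RNU1-28P, each with 10547 and 7995 TPM in si-NC cells and 17458, 15803 and 10633 TPM after si-circ_63706. On the plus strand were RNU1-2, RNU1-4, RNU1-27P and U1 (ENSG00000273768), each with 5842 and 8670 TPM in si-NC cells and 8691, 6968 and 6932 TPM after si-circ_63706. A minus-strand gene had 1.81 and 0.922 times the TPM of a plus-strand gene with si-NC, and 2.01, 2.27 and 1.53 times with si-circ_63706. The reason for a split between genes of 1 sequence was not tested, and their single values are uncertain.

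The minus-strand set had a log2 fold change of 0.64 (SE 0.22, adjusted p = 0.0618), which did not pass the threshold, although the groups did not overlap. Without si-circ_63706 library 3 it was called higher (log2 fold change 0.86, adjusted p = 0.0134). The margin was small, since 10633 TPM in si-circ_63706 library 3 was next to 10547 TPM in si-NC library 1. The plus-strand set overlapped (log2 fold change 0.07, SE 0.18, adjusted p = 0.769). Summed over the 8 identical genes, U1 was 65552 and 66659 TPM in si-NC cells and 104595, 91085 and 70261 TPM after si-circ_63706 (log2 fold change 0.40, SE 0.16, adjusted p = 0.0821).

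RNVU1-7 had the highest mean TPM of any single snRNA entry, though less in each library than the 8 identical genes together. It had 10589 and 10561 TPM in si-NC cells and 20580, 12163 and 28001 TPM after si-circ_63706. Every si-circ_63706 library was above si-NC, but these 3 libraries spread widely, and the log2 fold change of 0.86 (SE 0.31) had an adjusted p of 0.0709. Without si-circ_63706 library 2 it was called (log2 fold change 1.18, adjusted p = 0.0103). RNVU1-7 took 13.6% and 13.3% of the U1 TPM with si-NC and 16.1%, 11.5% and 27.9% with si-circ_63706. The library with the largest RNVU1-7 share was the one with the smallest sum over the 8 identical genes in its group. U1 (ENSG00000277918) rose: it had 1388 and 1474 TPM in si-NC cells and 2062, 1768 and 1709 TPM after si-circ_63706 (log2 fold change 0.36, SE 0.09, adjusted p = 0.0190). Its groups did not overlap, and without either si-NC library the adjusted p was 0.127 or 0.0746.

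**Figure D3:**
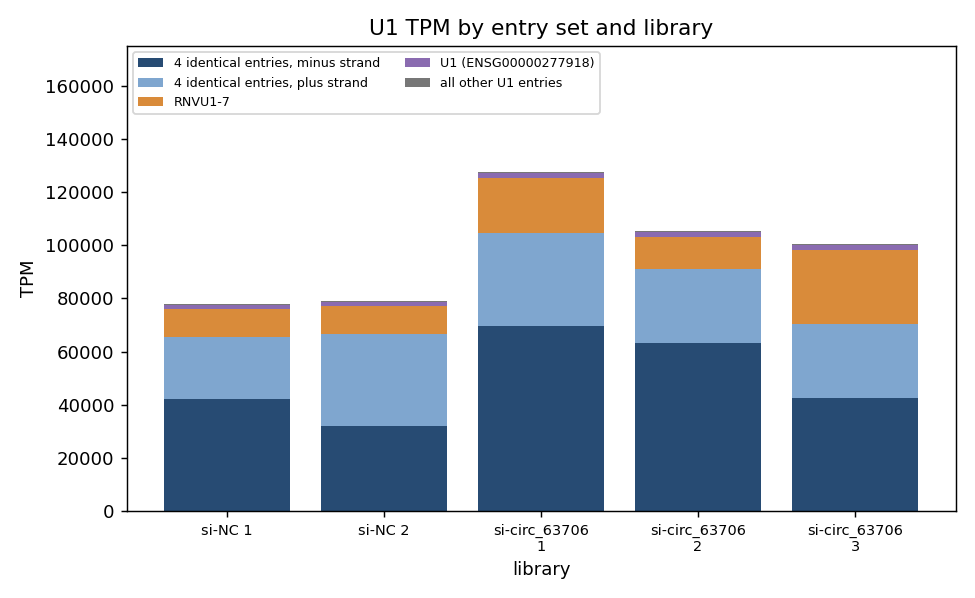
TPM of U1 entries in each library, stacked as the 4 identical genes of the minus strand, the 4 of the plus strand, RNVU1-7, U1 (ENSG00000277918) and all other U1 entries. The stacks reach 78055 and 79212 TPM in si-NC cells and 127767, 105476 and 100414 TPM after si-circ_63706, and the division between the sets varies from library to library.

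The 16 U1 genes with 2 or more differences from RNU1-1 were far less abundant, at mean TPM of 1.81 to 92.12 and identities of 72.35% to 98.78%. In 10 of them the si-circ_63706 mean was the lower one, and their log2 fold changes ran from -0.46 to 0.58. RNVU1-15 fell from 81.43 and 80.40 TPM to 57.30, 62.63 and 56.24 TPM (log2 fold change -0.46, SE 0.06, adjusted p = 0.00254). U1 (ENSG00000270722), which differs from RNU1-1 by A49T and C116T, fell from 103.88 and 103.09 TPM to 88.41, 86.84 and 78.37 TPM (log2 fold change -0.29, SE 0.06, adjusted p = 0.0121). Both had groups that did not overlap, in the direction opposite to the U1 sum. The call of U1 (ENSG00000270722) was lost with centring (log2 fold change -0.13, adjusted p = 0.239) and without si-NC library 1 or 2 (adjusted p = 0.0773 and 0.0692), whereas RNVU1-15 kept its call in all 15 alternatives run for it. The other 14 of these genes were not called. The least abundant of them, RNU1-122P, had 1.07 and 3.56 TPM in si-NC cells and 0.97, 1.16 and 2.29 TPM after si-circ_63706.

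U2 signal came almost wholly from RNU2-2P, an entry with a pseudogene name. It had 2882 and 2818 TPM in si-NC cells and 2621, 2398 and 2543 TPM after si-circ_63706, so that all si-circ_63706 libraries were lower (log2 fold change -0.18, SE 0.06, adjusted p = 0.0442). This value is close to the median of all tested genes, and with centring it was -0.02 (adjusted p = 0.821). Its adjusted p was 0.240 and 0.169 without si-NC library 1 or 2, and 0.159 and 0.0727 without si-circ_63706 library 2 or 3. RNU2-2P lies in an exon of WDR74 on the same strand, and WDR74 had 36.41 and 34.59 TPM in si-NC cells and 26.84, 29.90 and 30.22 TPM after si-circ_63706. RNU2-1 was at a mean of 0.294 TPM, below the limit, as were the other entries with its sequence. How reads matching all of these entries were counted is not stated, so the U2 sum may not hold all U2 RNA. U2 (ENSG00000274452), which differs from RNU2-1 by C170T, had 4.76 and 9.04 TPM in si-NC cells and 7.56, 11.46 and 11.07 TPM after si-circ_63706, which overlap (adjusted p = 0.156, or 0.0473 without si-NC library 2). RNU2-63P, with 77.32% identity to RNU2-1, fell from 2.72 and 2.59 TPM to 1.07, 1.25 and 1.66 TPM (log2 fold change -0.66, SE 0.12, adjusted p = 0.00739), without overlap. Without si-NC library 1 the adjusted p was 0.0534, and a level near the limit is measured less firmly than those above.

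The U4 genes RNU4-2 and RNU4-1 lie near each other on chromosome 12 and differ at 4 of 141 bases, and U4 holds U6 inactive until the spliceosome is activated. RNU4-2 had 2254 and 2460 TPM in si-NC cells and 2494, 2034 and 2168 TPM after si-circ_63706. RNU4-1 had 2101 and 2198 TPM in si-NC cells and 2686, 2194 and 2080 TPM after si-circ_63706. Neither differed beyond its spread, with log2 fold changes of -0.08 (SE 0.09, adjusted p = 0.510) and 0.10 (SE 0.11, adjusted p = 0.489), and the sign of RNU4-2 turned with centring (0.08). U4 (ENSG00000277986) was listed at 0 in 3 libraries and at 3.35 TPM in si-NC library 2 and 8.59 TPM in si-circ_63706 library 2. It lies in an exon of PTMA on the same strand, a gene at 383.26 to 423.24 TPM.

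Of the 8 U5 genes, 2 were called higher and none lower in limma (0 at an unadjusted p under 0.05 in that direction), and the si-circ_63706 group overlapped si-NC in the other 6. RNU5E-1, the most abundant, had 1215 and 1220 TPM in si-NC cells and 1957, 1380 and 1602 TPM after si-circ_63706 (log2 fold change 0.42, SE 0.14, adjusted p = 0.0482). RNU5A-8P had 229.34 and 191.38 TPM in si-NC cells and 304.13, 236.66 and 308.97 TPM after si-circ_63706 (log2 fold change 0.42, SE 0.13, adjusted p = 0.0455). The groups did not overlap in either gene, by a narrow margin for RNU5A-8P. Both calls were close to the threshold and each was lost in 7 of 15 alternatives. The 15 leave out the fit of shares of the snRNA total. In that fit 0 snRNA genes were called higher in limma (0 at an unadjusted p under 0.05), so both calls were lost there too. For RNU5E-1 the adjusted p was 0.173 without si-NC library 1, 0.169 without si-NC library 2 and 0.0933 without si-circ_63706 library 3. For RNU5A-8P it was 0.0717 and 0.244 without si-NC library 1 or 2, and 0.125 and 0.110 without si-circ_63706 library 1 or 3. RNU5E-1 also lies in an exon of AL021155.2 on the same strand, which was not analysed here. RNU5B-1 had 349.76 and 409.04 TPM in si-NC cells and 562.86, 374.51 and 466.05 TPM after si-circ_63706. RNU5E-6P had 388.48 and 282.34 TPM in si-NC cells and 548.89, 432.19 and 385.41 TPM after si-circ_63706. In both, 1 si-circ_63706 library was below the higher si-NC library, and RNU5B-1 passed the threshold without si-circ_63706 library 2 (adjusted p = 0.0460). The remaining genes, RNU5A-1, RNU5F-1, RNU5D-1 and RNU5E-4P, had means of 47.65 to 405.2 TPM and log2 fold changes of -0.39 to 0.19. RNU5D-1 and RNU5E-4P were highest in si-circ_63706 library 1, at 73.38 and 85.08 TPM, and each had its lowest value in another si-circ_63706 library.

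The snRNAs of the minor spliceosome were present at lower levels. RNU4ATAC, the minor counterpart of U4, rose from 12.85 and 23.55 TPM to 34.24, 32.54 and 31.75 TPM (log2 fold change 0.88, SE 0.22, adjusted p = 0.0207). The groups did not overlap, and the si-NC libraries differed from each other more than the si-circ_63706 libraries did. Without si-circ_63706 library 1 or 2 the adjusted p was 0.0680 or 0.0537, and the log2 ratio of the group means was 0.48 without si-NC library 1 and 1.35 without si-NC library 2. The gene lies in an intron of CLASP1 on the opposite strand, and CLASP1 stood at 8.35 to 9.51 TPM. RNU12, which pairs with the branch point of minor introns, had 106.81 and 140.38 TPM in si-NC cells and 226.64, 152.51 and 149.10 TPM after si-circ_63706 (log2 fold change 0.49, SE 0.20, adjusted p = 0.0961). Its groups did not overlap, but the gene did not pass the threshold. The log2 fold change of RNU12 was 0.297 without si-NC library 1 and 0.298 without si-circ_63706 library 1. RNU6ATAC had 68.51 and 85.37 TPM in si-NC cells and 125.63, 69.42 and 72.52 TPM after si-circ_63706 (log2 fold change 0.17, SE 0.26, adjusted p = 0.634). It was high in si-circ_63706 library 1 alone, and without that library the log2 fold change was -0.11.

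U11, the minor counterpart of U1, has no expressed entry of the snRNA biotype: RNU11 (ENSG00000274978) was listed at 0 in every library. A second RNU11 entry (ENSG00000270103), listed as lincRNA, spans chr1:28648600-28648730 within the same span on the same strand. It falls outside the rule and was picked after its values were seen. It had 184.51 and 225.26 TPM in si-NC cells and 469.83, 396.56 and 437.94 TPM after si-circ_63706, a mean of 204.9 ± 28.8 TPM (SD, n = 2) against 434.8 ± 36.7 TPM (SD, n = 3). All 3 si-circ_63706 libraries were above both si-NC libraries (log2 fold change 1.09, SE 0.10, adjusted p = 0.00138), and it stayed higher with an adjusted p of at most 0.0191 in all 15 alternatives run. RNU12 has such an entry too (ENSG00000270022, named RNU12), which spans 664 nt over the snRNA. It had 10.69 and 10.45 TPM in si-NC cells and 8.33, 10.02 and 8.33 TPM after si-circ_63706 (log2 fold change -0.23, SE 0.09, adjusted p = 0.0724), while the snRNA entry of RNU12 was higher in each si-circ_63706 library.

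**Figure D4:**
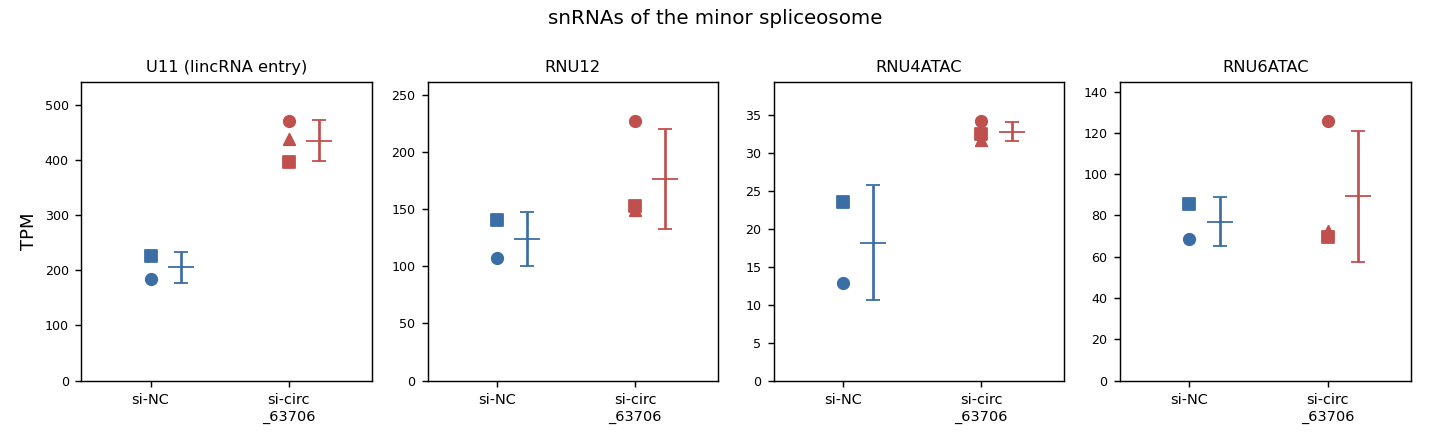
TPM (vertical axis, from 0) of the RNU11 entry listed as lincRNA, RNU12, RNU4ATAC and RNU6ATAC in the 2 si-NC libraries (blue) and the 3 si-circ_63706 libraries (red), with circles, squares and triangles for replicates 1, 2 and 3 and bars for the mean ± SD. RNU11, RNU12 and RNU4ATAC do not overlap between the groups, and RNU6ATAC does.

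U6, the RNA at the catalytic centre, and U7 entries were nearly all listed at 0. Of 1300 U6 entries, 2 were above 0 in any library, and RNU6-1, RNU6-2, RNU6-7, RNU6-8 and RNU6-9 were listed at 0 in all 5. All 165 U7 entries, RNU7-1 included, were listed at 0. As every cell uses U6, a value of 0 in this table says no more than that the entry is listed at 0. The U6 entry that met the rule, RNU6-914P, had 13.43 TPM in si-circ_63706 library 1 and was listed at 0 in the other 4 libraries, so that it passed through 1 library. It lies in an exon of NIPAL2 on the same strand, which had 1.88 to 3.67 TPM. At the limit of 1 TPM, the lowest genes kept were RNU1-122P (mean 1.81 TPM) and RNU2-63P (mean 1.86 TPM), and the highest left out were RNU4-21P (mean 0.966 TPM) and RNU1-134P (mean 0.952 TPM).

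Of 122 genes for snRNP proteins and snRNA processing, in 8 lists, 56 were lower with si-circ_63706 (45.9%) and 2 were higher (1.64%), beside 35.4% and 4.16% of all tested genes. Their median log2 fold change was -0.18, against -0.16 for all tested genes. With centring, 23 were lower and 17 higher, beside 13.7% lower and 13.1% higher of all tested genes, and the median was -0.02. Without si-NC library 1 or 2 the number of lower genes was 21 or 26. The protein-coding share of TPM, given above, was lower after si-circ_63706. With that share set equal in all libraries, 23 were lower and 14 higher (median log2 fold change -0.05). In that fit 16.7% of all tested genes were lower and 11.3% higher.

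The counts of the single lists below are to be read against the same 35.4% lower and 4.16% higher. Those with centring are to be read against 13.7% lower and 13.1% higher. Among the 8 Sm proteins, which form the ring on snRNAs, 4 were lower and 1 was higher, and with centring 2 were lower and 3 higher. SNRPB fell from 111.16 and 111.39 TPM to 74.25, 80.04 and 79.31 TPM (log2 fold change -0.51, adjusted p = 0.00138). SNRPD2 fell from 161.92 and 158.98 TPM to 124.00, 130.56 and 137.37 TPM (log2 fold change -0.30, adjusted p = 0.00758). SNRPG, named because it was the 1 gene of its list called higher, rose from 91.49 and 90.72 TPM to 99.77, 109.51 and 110.87 TPM (log2 fold change 0.22, adjusted p = 0.0226). The groups of these 3 genes did not overlap, and SNRPD2 had an adjusted p of 0.0625 and 0.0506 without si-NC library 1 or 2.

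Of 8 U1 protein genes, 4 were lower and 1 higher, which with centring became 2 and 3. SNRPA and SNRNP70, which bind stem-loops of U1, fell with log2 fold changes of -0.42 (adjusted p = 0.00227) and -0.33 (adjusted p = 0.00329), in contrast to the U1 sum. LUC7L2, a U1-associated protein that was picked after its values were seen, rose from 16.60 and 18.23 TPM to 20.54, 21.11 and 21.19 TPM (log2 fold change 0.25, adjusted p = 0.0135). Of 15 U2 protein genes, 7 were lower (4 lower and 1 higher with centring), with U2AF2, which binds the polypyrimidine tract, at -0.47 (adjusted p = 0.00131) and SF3B5 at -0.43 (adjusted p = 0.00185). Of 16 genes for U4/U6 and U5 proteins, 13 were lower (4 lower and 1 higher with centring), with USP39 at -0.45 (adjusted p = 0.00168) and PRPF3 at -0.36 (adjusted p = 0.00232). Without centring, none of the genes in the last 2 lists was called higher in limma, and none had an unadjusted p under 0.05 in that direction.

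The share called lower, 33.3% of the minor spliceosome, 37.5% of the SNAPc and Integrator and 30.4% of the export, cap and SMN genes, was near that of all tested genes. Of 12 genes of the minor spliceosome, 4 were lower (2 lower and 1 higher with centring), with SNRNP25 at a log2 fold change of -0.48 (adjusted p = 0.00712) and PDCD7 at -0.40 (adjusted p = 0.00758). Both are proteins of the U11/U12 snRNP, and PDCD7 had an adjusted p of 0.0601 without si-NC library 1. Of 16 LSM and U6-processing genes, 8 were lower (5 lower and 5 higher with centring), and the lowest adjusted p values were those of MEPCE, which caps 7SK and U6 (-0.51, adjusted p = 0.00143), and LSM4 (-0.40, adjusted p = 0.00250). Of 24 SNAPc and Integrator genes, 9 were lower (2 lower and 1 higher with centring), with SNAPC2 at -0.41 (adjusted p = 0.00261) and INTS1 at -0.38 (adjusted p = 0.00443). Of 23 genes for export, the cap and SMN assembly, 7 were lower (2 lower and 2 higher with centring), with SNUPN, the adaptor that imports capped snRNPs, at -0.54 (adjusted p = 0.00375) and PRMT5, which methylates Sm proteins, at -0.30 (adjusted p = 0.00783). With centring, PRMT5 lost its call (-0.14, adjusted p = 0.105), as it did without si-NC library 1 (adjusted p = 0.0578).

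**Figure D5:**
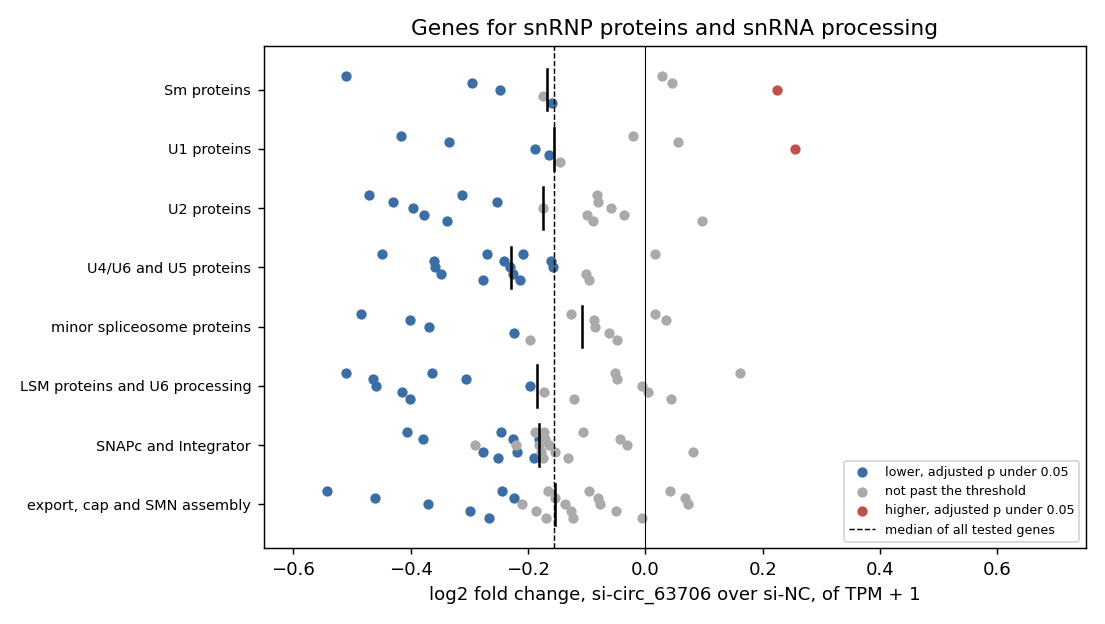
log2 fold change of TPM + 1, si-circ_63706 over si-NC (horizontal axis), of 122 genes in 8 lists of snRNP proteins and snRNA processing (rows), where each point is 1 gene, coloured by its call, and black bars are list medians. The list medians lie between -0.23 and -0.11, around the dashed line for all tested genes at -0.16.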

How the data were processed

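RNA of DAOY cells was measured in 5 libraries, 2 si-NC and 3 si-circ_63706, grouped by their labels. The authors deposited 1 table of TPM with 2 decimals for 60504 genes, normalized to a total of 1000000 in each library. The submitters' processing notes name cutadapt 2.3, STAR 2.7.0d, RSEM 1.3.1 and hg38, without their order. The annotation, the strand setting and the kit are not given in the sources used here. TPM divides by gene length, and how the lengths of genes this short were treated is not stated. Depth is unknown without counts, so no counting intervals were computed.

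Genes with a mean of at least 1 TPM (12710) were fitted in limma 3.58.1 (R 4.3.3) on log2(TPM + 1), with empirical Bayes moderation and a trend, no covariates, two-sided p values and Benjamini-Hochberg adjustment over all of them at 0.05. Fold changes are on that scale and understate those of low genes. The procedure was tested on simulated data. Sequences and positions came from GENCODE 29 (GRCh38), which gave a sequence to 1872 of 1896 snRNA entries. Identity was computed by global alignment in Biopython 1.88. Python 3.11.15 with pandas 2.3.3, numpy 2.4.6 and matplotlib 3.10.9 was used. Some sequences are not reported here. Totals of a type summed all its entries and had no test.

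Named were the 3 most abundant genes of each type with ties, all minor snRNAs, up to 5 called genes in each direction, the 2 on each side of the limit, and the 2 partner genes of lowest adjusted p in each list. The genes and lists were chosen with earlier results of these data known. Alternatives were a pseudocount of 0.1, other minimums, centring on genes of at least 10 TPM, quantile normalization, other totals, no trend, array quality weights, a replicate block, leaving out each library, and summing identical copies.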

Additional observations from a re-analysis of the deposited data

How the results depend on the processing

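Without a minimum TPM, 0 snRNA genes were called higher in limma (4 at an unadjusted p under 0.05) and 2 lower, and 0 partner genes higher (3 unadjusted) and 28 lower. With a minimum of 5 TPM, 9 snRNA genes were higher, 4 of them the identical U1 genes of the minus strand. As shares of the snRNA total, 0 were higher (0 unadjusted) and 12 lower. Without a trend, 2 were higher. Centring, quantile normalization and an equal protein-coding total each left 2 lower, with 17, 16 and 14 partner genes higher and 23, 22 and 23 lower. Over all tested genes, 13.1%, 12.5% and 11.3% were higher and 13.7%, 13.2% and 16.7% lower in these fits. Leaving out misc_RNA genes gave 1 partner gene higher. With the replicate block, 9 snRNA genes, the same 4 U1 genes among them, and 1 partner gene were higher. The replicate numbers did not pair the samples: only 2 numbers are shared, and the differences between them correlated at r = 0.0229 across 12710 genes. Leaving out each library in turn gave 2 to 6 snRNA genes higher and 1 to 6 lower, and 0 to 2 partner genes higher (2 unadjusted without si-NC replicate 1, which gave the 0) and 21 to 51 lower.

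The log2 ratio of type totals moved from 0.50 (U1), -0.18 (U2) and 0.02 (U4) to 0.66, -0.0214 and 0.17 with an equal protein-coding total. As shares of the snRNA total, it was 0.0431 for U1, -0.62 for U2, -0.44 for U4, -0.10 for U5, 0.0413 for U12, 0.41 for U4atac and -0.31 for U6atac. Leaving out each library gave 0.39 to 0.57 for U1, -0.20 to -0.14 for U2, -0.09 to 0.07 for U4, 0.20 to 0.47 for U5, 0.29 to 0.72 for U12, 0.48 to 1.35 for U4atac, -0.16 to 0.32 for U6atac and 0.35 to 0.52 for all snRNA. Among single genes, signs turned for RNU2-2P with quantile normalization (0.0844) and for RNU4-2 with centring (0.0761) or an equal protein-coding total (0.0702). Leaving out 1 library, values ran from -0.00885 to 0.176 for RNU4-1, from -0.107 to 0.322 for RNU6ATAC and from -0.92 to 0.219 for RNU1-122P. U4 (ENSG00000277986) turned with a pseudocount of 0.1 (-0.41), without misc_RNA genes (-0.0785), and ran from -1.06 to 1.09 with 1 library left out. Causes were not tested.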

Other observations

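Entries below the limit also held snRNA signal. Of the 146 U1 entries, 47 were above 0 in any library, as were 25 of 88 U2 entries, 10 of 96 U4 entries and 8 of 31 U5 entries. The number of snRNA entries above 0 was 66 and 65 with si-NC and 64, 60 and 59 with si-circ_63706. In contrast, the number of all genes above 0 was 29748 and 29253 with si-NC and 33963, 33905 and 34347 with si-circ_63706. The groups did not overlap in either number and differed in opposite directions, but for snRNA entries only by 64 against 65. Among the 44 genes the numbers above 0 overlapped, at 41 and 43 with si-NC and 43, 43 and 42 with si-circ_63706. Such numbers can vary with depth, which is unknown here.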
